A study of Mus musculus with 2 samples.

Results

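The Z22 peaks described here were called on chromosomes 1 to 19 and X of Alexidine-treated mouse embryonic fibroblasts (MEFs) at places where the untreated MEFs had no peak. They were chosen by the measured peak calls themselves: a peak of the Alexidine list was taken when it shared no base with any peak of the untreated list. The rule gave 363 Alexidine-only peaks out of 528 Alexidine peaks on these chromosomes (68.8%). In the whole Alexidine list, which also covers the Y chromosome and unplaced scaffolds, 433 of 687 peaks (63.0%) shared no base with an untreated peak. Because the rule used the contrast between the lists, these shares are given as a background from which nothing is read, and every value below is a description without a test.

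Z-DNA is a left-handed form of the double helix that alternating purine and pyrimidine sequence adopts most readily. Z22 is a monoclonal antibody that binds it, and in chromatin immunoprecipitation it pulls down DNA fragments recognised in this form. Alexidine, a bisbiguanide compound used as an antimicrobial, was studied here as a small molecule that induces Z-DNA.

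Primary MEFs from E13.5 embryos were either left untreated or exposed to 1 µM Alexidine for 24 h, and both groups shared the medium, fixation, enzymatic shearing and antibody. The strain was not given in the sources used here, and primary embryonic fibroblasts are a mixed culture rather than 1 clone. There was 1 library per condition, so differences between the libraries and differences between the conditions cannot be told apart. An input or IgG library was not used here. Positions are in GRCm39, the build whose sequence versions the lists carry. Genes and sequence at the peaks were not analysed here.

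The lists hold no read totals. For each peak they give a fold over the local background and a −log10 p, which in the Poisson model of MACS2 fix the pileup (the number of fragments stacked at the summit) and the local background (the number expected there). Both could be recovered for all 363 Alexidine-only peaks. The lowest background was 1.23 fragments in the Alexidine library and 1.43 in the untreated library. Divided by the narrowest peak of each list (179 bp and 245 bp), which was taken as the fragment length, these values made the Alexidine library 1.2 times as deep as the untreated one. Intervals below are at 95%, exact binomial for shares and medians and exact Poisson for counts per length, and cover counting error only.

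Most Alexidine-only peaks were low. Their median pileup was 12 fragments, with quartiles at 10 and 15, and the range ran from 8 to 2612. A pileup of 8 was found in 19 peaks, 9 in 61 and 10 in 48, so that 128 of 363 (35.3%, 30.3% to 40.4%) held at most 10 fragments. At the upper end, 49 peaks (13.5%, 10.2% to 17.5%) reached 20 fragments. The shared Alexidine peaks on the same chromosomes, 165 in number, were higher, with a median of 32.5 fragments over the 162 that could be recovered and 112 of them (69.1%, 61.4% to 76.1%) at 20 or more. The 164 untreated-only peaks, 50.6% of the 324 untreated peaks on these chromosomes, had the same median pileup of 12 fragments and a range of 9 to 42. Fewer of them were at either end, however, with 34 of 164 (20.7%, 14.8% to 27.7%) at 10 fragments or fewer and 13 (7.93%, 4.29% to 13.2%) at 20 or more. These shares come from 1 library each and were not compared by a test. They also depend on the calling limit of each library. At the lowest background, the smallest pileup called was 8 fragments in the Alexidine list and 9 in the untreated list. At least 9 fragments were held by 344 of the 363 Alexidine-only peaks. Fragment length, lowest background and depth differed between the libraries, so their pileups are not on 1 scale. Whether these 344 peaks would pass the limit of the untreated library was not tested.

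The lowest background is a floor, the library-wide rate in the model of MACS2, so a peak at it had a local read density no higher than that rate. For 75% of the Alexidine-only peaks the background was at most 1.19 times this floor. The lowest background of the library was found at 174 of 363 Alexidine-only peaks (47.9%, 42.7% to 53.2%), and the median was 1.24 fragments. Among shared Alexidine peaks, 25 of 162 (15.4%, 10.2% to 21.9%) were at the lowest background and the median was 3.13. Of the untreated-only peaks, 69 of 164 (42.1%, 34.4% to 50.02%) were at the lowest background of their own library. A background above 2 times the lowest was measured at 43 Alexidine-only peaks (11.8%, 8.71% to 15.6%), and above 4 times at 17 (4.68%, 2.75% to 7.39%). For untreated-only peaks these shares were lower, 5.49% (2.54% to 10.2%) and 1.22% (0.148% to 4.34%). For shared Alexidine peaks they were 54.3% (46.3% to 62.2%) and 39.5% (31.9% to 47.5%). Most Alexidine-only peaks thus had a background at or slightly above the floor, and a smaller group had a raised one.

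The fold over background was moderate. Its median was 5.18 (4.94 to 5.36) and its range 1.95 to 24.9, against a median of 6.21 (5.78 to 6.83) for shared Alexidine peaks and 4.93 (4.88 to 5.18) for untreated-only peaks. A fold below 5 was given to 166 Alexidine-only peaks, 5 to under 10 to 189, and 10 or more to 8 (2.20%, 0.956% to 4.3%). Of the shared Alexidine peaks, 45 of 165 (27.3%, 20.6% to 34.7%) had a fold of at least 10. Of the untreated-only peaks, 4 of 164 (2.44%, 0.668% to 6.13%) did. The −log10 q of Alexidine-only peaks had a median of 3.88 and a lowest value of 1.31, close to the default q limit of 0.05 in MACS2. It was under 2 for 24 peaks and at least 10 for 38. Across the 363 peaks of this 1 library, pileup rose with background (Spearman's rho 0.53), while fold and background were nearly unrelated (rho −0.06). A call needs more fragments where the background is higher, and both pileup and background were recovered from the same fold and −log10 p. These coefficients are therefore in part fixed by the call and the recovery, and nothing is read from them.

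The calling limit restricts which backgrounds a low peak can have: the Alexidine-only peak with the lowest −log10 q, 1.31, held 8 fragments on a background of 1.31. The shares at the lowest background are therefore in part fixed by the pileup, and are given by pileup as a description only. Of the 80 peaks with 8 or 9 fragments, 65 (81.3%, 71.0% to 89.1%) were at the lowest background and the median fold was 4.49. Of the 134 peaks with 10 to 12 fragments, 72 (53.7%, 44.9% to 62.4%) were. Among the 100 peaks with 13 to 19 fragments there were 36 (26.6% to 46.2%), and among the 49 peaks with 20 or more there was 1 (2.04%, 0.0517% to 10.9%). The tallest of these groups had a median background of 3.26 fragments.

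The Alexidine-only peaks were narrow. Their median width was 267 bp (252 to 281 bp), with a range of 179 to 991 bp, and together they covered 110743 bp, or 51.3% of the 216081 bp under Alexidine peaks on these chromosomes. Shared Alexidine peaks had a median width of 475 bp (405 to 526 bp) and reached 5314 bp. Untreated-only peaks had a median of 336 bp (316 to 357 bp), but the narrowest peak also differed between the lists. In units of that narrowest peak, the median width was 1.49 for Alexidine-only, 1.37 for untreated-only and 2.65 for shared Alexidine peaks, so the wider untreated-only peaks were not wider on this scale. No more than 2 narrowest-peak lengths were spanned by 275 Alexidine-only peaks (75.8%, 71.0% to 80.1%), and 31 (8.54%, 5.88% to 11.9%) were at least 500 bp wide. In the untreated list, 139 of 164 untreated-only peaks (84.8%, 78.3% to 89.9%) spanned no more than 2 of its narrowest-peak lengths. Width hardly followed pileup across the 363 peaks (rho 0.09). The summit lay at a median of 48.8% of the peak's width, and in 264 peaks (72.7%, 67.8% to 77.2%) it was in the middle 50%, against 94 of 165 shared Alexidine peaks (57.0%, 49.0% to 64.6%). The summit was in the middle 50% in 99 of 164 untreated-only peaks (60.4%, 52.4% to 67.9%).

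Every chromosome from 1 to 19 and X held Alexidine-only peaks, from 8 on chromosome 16 to 36 on chromosome X. Over the span that the peaks of both lists cover, 2491 Mb in all, this was 1.46 peaks per 10 Mb (1.31 to 1.62). Chromosome X had 2.32 per 10 Mb (1.62 to 3.21), chromosome 8 had 2.3 (1.47 to 3.42) and chromosome 19 had 2.02 (1.01 to 3.61). Chromosome X also held 18 of the 164 untreated-only peaks and 16 of the 165 shared Alexidine peaks. The same counts were 6 and 9 on chromosome 8, and 2 and 4 on chromosome 19. The lowest densities were 0.843 (0.364 to 1.66) on chromosome 16 and 0.996 (0.600 to 1.56) on chromosome 1. These chromosomes were named after the densities were seen, so their intervals were not compared. Peaks in the same cluster are not independent counts, and 19 of the 36 peaks of chromosome X lay in the runs described below.

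Along the chromosomes the peaks were spread over the whole length, with more of them near the start. When the span of each chromosome was divided into 10 equal parts, the first part held 62 Alexidine-only peaks and the next 50, while the parts from the third to the ninth held between 25 and 36 and the last held 38. Shared Alexidine peaks were more uneven, with 63 of 165 in the first part, 31 in the last and between 4 and 13 in each of the others. Untreated-only peaks ranged from 8 to 26 per part, with the 26 in the first.

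The gap between neighbouring Alexidine-only peaks on a chromosome had a median of 4.16 Mb over 343 gaps, from 202 bp to 49.6 Mb, and the longest stretch without one ran on chromosome 3 from 90876924 to 140477134. Shared Alexidine peaks had a median gap of 1.60 Mb, yet 25% of their gaps were at most 0.00349 Mb and the longest was 113 Mb. Untreated-only peaks had a median gap of 8.93 Mb over 144 gaps. Joining peaks with gaps of at most 100 kb placed 61 of 363 Alexidine-only peaks (16.8%, 13.1% to 21.1%) in groups, against 73 of 165 shared Alexidine peaks (44.2%, 36.5% to 52.2%) and 12 of 164 untreated-only peaks (7.32%, 3.84% to 12.4%). The Alexidine-only share depended on which peaks were kept. It was 10.8% without peaks that had an untreated peak within 10 kb, and 28.9% with a −log10 q of at least 10. The lists differ in length, and a longer list gives closer neighbours, so the gaps and shares of Alexidine-only and untreated-only peaks are not on an equal footing. The other 302 Alexidine-only peaks stood alone, 17 groups were pairs, 6 held 3 peaks, 1 held 4 and 1 held 5.

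Grouped and lone peaks differed in background. Of the 302 lone peaks, 164 (54.3%, 48.5% to 60.0%) were at the lowest background, with a median pileup of 11 fragments. Of the 61 grouped peaks, 10 (16.4%, 8.15% to 28.1%) were, and their median background and pileup were 2.79 and 17 fragments. Their median widths were alike, 267.5 bp for lone and 259 bp for grouped peaks. A call on raised background needs more fragments, so the higher pileup of grouped peaks is in part fixed by their background.

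Distance to the untreated list separated the same kinds of peak. The nearest untreated peak was a median of 1.97 Mb away and at most 23.9 Mb. It was less than 1000 bp away for 13 Alexidine-only peaks, less than 10 kb for 30 and less than 100 kb for 56, and at least 10 Mb away for 37. The 30 peaks within 10 kb had a median pileup of 30 fragments on a median background of 4.60, and 1 of them (3.33%, 0.0844% to 17.2%) was at the lowest background. The other 333 had a median pileup of 11 fragments, and 173 (52.0%, 46.4% to 57.4%) were at the lowest background. Peaks next to an untreated peak were mostly tall peaks on raised background, whereas the bulk of the list lay far from any untreated peak. A call on raised background needs more fragments, so the taller pileups are in part fixed by the calling limit. Such distances were not particular to Alexidine-only peaks. Untreated-only peaks were a median of 1.41 Mb and at most 18.6 Mb from the nearest Alexidine peak, with 9 of 164 (5.49%, 2.54% to 10.2%) less than 10 kb away.

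At the edge of the rule, the Alexidine-only peak closest to an untreated peak was on chromosome X at 68980587 to 68981054, 130 bp away, with 10 fragments and a fold of 4.70. It was followed by chromosome 7 at 47954434 to 47954694, 173 bp away with 11 fragments, and chromosome 4 at 156501709 to 156501978, 205 bp away with 13 fragments. Just outside the rule, the smallest overlap of a shared Alexidine peak was 10 bp, on chromosome 9 at 99359206 to 99359386, with 10 fragments. The next were 20 bp on chromosome 6 at 116457647 to 116457843, with 9 fragments, and 26 bp on chromosome 2 at 118275477 to 118275755, with 10 fragments. The 6 peaks named here held 9 to 13 fragments, whereas the next Alexidine-only peak by distance, 336 bp away at the start of chromosome 9, held 1122.

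Mouse chromosomes are acrocentric, so that the low end of the numbering lies beside the centromere. Below 3.2 Mb, a limit chosen after the positions were seen, there were 19 Alexidine-only peaks (5.23%) on 9 chromosomes, together with 53 shared Alexidine peaks (32.1% of the shared ones) and 5 untreated-only peaks (3.05%). The 19 peaks had a median pileup of 34 fragments and a median background of 6.41, and 2 of them were at the lowest background. Within 10 kb of an untreated peak lay 15 of the 19, which make up a large part of the 30 such peaks named above. Of the other 4, 1 was the peak of chromosome 4 at 3067630 to 3067983, 13829 bp from an untreated peak. Chromosomes 7 and 13 held the remaining 3, with 1 and 2 Alexidine-only peaks below 3.2 Mb and no shared or untreated-only peak there, and the nearest untreated peak of each was over 5 Mb away. On the other 7 chromosomes with such peaks, shared peaks were also called below 3.2 Mb.

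The highest pileups were at the start of chromosome 9. Whether blacklisted regions had been removed before the lists were made is not given in the sources used here. Its 2 Alexidine-only peaks lay among 20 shared Alexidine peaks. The peak at 3029669 to 3029868 had a pileup of 2612 on a background of 665 fragments, a fold of 3.92 and a −log10 q of 703, and was 649 bp from an untreated peak. The peak at 3033748 to 3033975 had a pileup of 1122 on a background of 575, and was 336 bp from an untreated peak. Its fold of 1.95 was the lowest of all 363 Alexidine-only peaks, although its −log10 q was 85.0. All other Alexidine-only peaks had pileups of at most 88 fragments.

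The group with the most peaks at 100 kb held 5 Alexidine-only peaks at the start of chromosome 11, from 3069761 to 3104283, with 5 shared Alexidine peaks between them. Their pileups ranged from 20 to 44 fragments and their backgrounds from 2.89 to 10.6. The first, at 3069761 to 3069953, had the highest fold of the 5, 5.39, with the lowest pileup and background. The peak at 3091445 to 3091806 had the lowest fold, 3.45, with 39 fragments, and lay 454 bp from an untreated peak. A similar group of 3 stood at the start of chromosome 4, from 3067630 to 3081438, with pileups of 26 to 39 fragments, backgrounds of 6.12 to 10.3 and folds of 3.09 to 3.79. No shared peak lay inside it, and its last peak was 374 bp from an untreated peak.

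Chromosome 8 held 3 of the 8 groups of at least 3 peaks. From 55913208 to 56020171 there were 4 Alexidine-only peaks with 2 shared Alexidine peaks between them. The outer 2 of the 4 were low, with 9 and 11 fragments, and the inner 2 reached 23 and 24 fragments on backgrounds of 3.69 and 3.26. The groups of 3 from 20594028 to 20714999 and from 21205580 to 21244174 had pileups of 14 to 17 and 15 to 17 fragments. Joined at 1 Mb, they belonged to 1 stretch of 9 Alexidine-only peaks from 20594028 to 21477737, along with 3 shared Alexidine peaks and 1 untreated-only peak. None of the 9 was at the lowest background: their backgrounds ran from 2.24 to 6.32 fragments, with folds of 3.14 to 5.25. They formed a run of peaks of like height, 14 to 22 fragments, on raised background.

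The longest run at 1 Mb was on chromosome X, where 11 Alexidine-only peaks lay between 121641248 and 124935024 with 2 shared Alexidine peaks and no untreated-only peak among them. Their pileups were 11 to 25 fragments and their median background 2.01. The tallest, at 124923914 to 124924172, had 25 fragments on a background of 1.68 and a fold of 9.70. At the distal end of the chromosome, past 160 Mb, a limit also chosen after the positions were seen, 8 Alexidine-only peaks lay from 168772332 to 169278538 beside 12 shared Alexidine peaks and 2 untreated-only peaks. The distal end of the mouse X carries the pseudoautosomal region, which it shares with the Y chromosome. These 8 peaks had 18 to 87 fragments on backgrounds of 1.23 to 13.2. Both runs together held 19 of the 36 Alexidine-only peaks of chromosome X.

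Of the 8 distal peaks, 3 formed a group from 168772332 to 168855936 and 3 another from 169255251 to 169278538. In the first group, the peak at 168783457 to 168783745 had 51 fragments on a background of 11.7 and the peak at 168855668 to 168855936 had 18 fragments on the lowest background. In the second, pileups of 20 to 28 fragments stood on backgrounds of 3.52 to 4.95. The remaining pair included the tallest of the 8, at 169078002 to 169078323, with 87 fragments on a background of 13.2. Pileups thus varied widely here, and so did the background. The last group of 3 was on chromosome 14 from 15909973 to 16042267, with 10 to 15 fragments on backgrounds of 1.34 to 2.34 and no shared or untreated-only peak inside it.

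The 4 runs of at least 5 peaks joined at 1 Mb (11 and 8 on chromosome X, 9 on chromosome 8 and 5 on chromosome 11) held 33 of the 363 Alexidine-only peaks (9.09%), and 4 of the 33 were at the lowest background. Joining at 1 Mb placed 132 of the 363 peaks (36.4%, 31.4% to 41.5%) in groups of any size.

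The 10 Alexidine-only peaks with the highest fold lay on 8 chromosomes, and 8 of them were alone at 100 kb, as were 302 of all 363. Their backgrounds were between 1.23 and 3.55 fragments, and 1 of the 10 was at the lowest background, against 174 of all 363. The highest fold, 24.9, was that of chromosome 3 at 159645058 to 159645316, where 88 fragments stood on a background of 2.57 and the nearest untreated peak was 5909281 bp away. Chromosome 13 at 120782984 to 120783174 had a fold of 19.6 from 49 fragments, and chromosome 18 at 43108853 to 43109132 a fold of 16.5 from 46 fragments. Chromosome 12 at 43637700 to 43638082 had a fold of 15.8 from 36 fragments. These 4 peaks were 191 to 383 bp wide and stood well above the median pileup of 12.

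The fifth in this order was the only 1 of the 10 within 10 kb of an untreated peak: chromosome X at 169089320 to 169090016, in the distal run, with 55 fragments, a fold of 12.3 and an untreated peak 5555 bp away. Chromosome 15 at 64911054 to 64911314 had a fold of 11.6 from 26 fragments. Chromosome 12 at 5883555 to 5883742 had 11.1 from 27 fragments, and chromosome 14 at 19454162 to 19454396 had 10.0 from 29. With a fold under 10, chromosome 5 at 107969049 to 107969238 held 21 fragments on the lowest background, and chromosome 13 at 8858787 to 8859563 held 22 on a background of 1.33. From the sixth peak on, pileups were therefore between 21 and 29 fragments on backgrounds no higher than 1.99.

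The 5 widest Alexidine-only peaks spanned 777 to 991 bp with 12 to 22 fragments on backgrounds of 1.25 to 1.80. The widest was on chromosome 9 at 121758735 to 121759725 (991 bp, 12 fragments, fold 5.78). Chromosome 8 at 96244113 to 96245005 followed with 893 bp and 14 fragments, and chromosome 5 at 115947669 to 115948557 with 889 bp and 15 fragments. Chromosome 3 at 140477134 to 140477923, which ended the longest stretch without an Alexidine-only peak, was 790 bp wide with 14 fragments. The last was the peak of chromosome 13 at 8858787 to 8859563 (777 bp), the single peak among both the widest and the highest in fold, with 22 fragments. The other 4 held 12 to 15 fragments, near the median of 12. None of the 5 lay within 10 kb of an untreated peak.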

How the data were processed

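Z22 peaks were analysed in 1 untreated and 1 Alexidine-treated MEF library. Per the study's methods and processing notes, the authors trimmed reads with fastp 0.23.1, aligned them with Bowtie2 2.3.4.3, handled duplicates with SAMtools 1.17 and called peaks in each library with MACS2 at default settings. The methods also state that regions on the ENCODE blacklist were left out and that peaks were kept by statistical thresholds, without saying whether this was done before or after the deposited lists. They name mm10, whereas the notes and the sequence versions in the lists are GRCm39. Whether an input library was used is not given in the sources used here. Each deposited list gives the authors' fold, a ratio to the local background. It also holds the authors' −log10 p and −log10 q, and a deposited score of 10 times the −log10 q.

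Pileup n (a whole number up to 6000) and background λ were recovered where (n + 1)/(λ + 1) equals the fold and the Poisson −log10 p comes within 0.002 of the deposited one. A background within 0.002 of the library's lowest counted as the lowest. Tested on simulated data, the recovery returned no wrong pileup, but it returned none for some peaks with a −log10 p above 1000, where 6 printed digits round by more than the tolerance. No Alexidine-only peak is that high. The recovered values and the relative depth rest on the Poisson model, and the depth also assumes that MACS2 was given 1 genome size for both libraries. Dose and time were taken from the paper and not from the labels.

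Peaks were joined into groups at gaps of at most 100 kb. The peaks named are the 10 with the highest fold, the 5 widest, the groups with the most peaks (5 were planned, and ties at 3 peaks made 8) and the 3 closest to the rule on each side. Peaks named at the start of chromosome 9 and, outside the groups, in the runs on chromosome X were chosen after their values were seen. Members and lists were chosen with earlier results of these data known. Python 3.11.15, NumPy 2.4.6, SciPy 1.17.1 and pandas 2.3.3 were used. Genes, promoters and sequence at the peaks were left out because no genome or annotation of GRCm39 was used here, and no coordinates were converted. No test was made, since there is 1 library per condition.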

Additional observations from a re-analysis of the deposited data

How the results depend on the processing

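Of 30 values under alternatives, 20 stayed within the 95% interval of the main value (numbers of peaks within 1.5 times) and 10 did not. With a −log10 q of at least 5, 127 peaks remained by construction, with a median fold of 6.73 and 29.1% at the lowest background. With at least 10, these values were 38 peaks, 8.53 and 13.2%, and 28.9% of the peaks lay within 100 kb of another. Without peaks that had an untreated peak within 10000 bp, 10.8% lay within 100 kb of another. Joining at 10 kb gave 4.68% and at 1 Mb 36.4%, which follows from the distance. The median width stayed within its interval under each definition of the peaks. Recovering pileups up to 400 only, an alternative chosen after seeing the data, gave 48.2% at the lowest background. Shares of peaks in genes and with TG runs, and their other settings, were not run, as no genome or annotation of GRCm39 was used here. No paired analysis was possible because each condition has 1 library. A peak of 8 or 9 fragments is close to the smallest that was called, so its absence from the untreated list does not show that no signal was there. No alternative matched the depth of the libraries, and its part in the lists was not tested.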
